A study of Mus musculus with 6 samples.

Results

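The 9 genes described here encode transcription factors that pattern the forebrain and the cerebral cortex: Six3, Lhx2, Emx1, Emx2, Otx1, Dmrta2, Dmrt3, Nr2f1 and Nr2f2. They are 9 of the 39179 genes counted. They were chosen by name and role, with the differences between the 2 groups of these libraries already known, so their fold changes and test results below are a description of these genes and no support for the choice. RNA was sequenced in 6 libraries from differentiated neural progenitor cells, the precursors of neurons and glia, prepared from the cerebral cortex of CD1 mouse embryos at stage E13.5. In 3 libraries the cells stably expressed the G392E variant of neuroserpin (G392E-NS), a secreted serine protease inhibitor whose variant polymerises in the endoplasmic reticulum and causes the dementia FENIB. In the other 3 they stably expressed green fluorescent protein (GFP). The labels give neither the promoter of the constructs nor whether replicates came from separate cultures or clones. P-values therefore measure only how far these 6 libraries spread, and that spread may be technical. The comparison is of the variant with GFP, with no cells expressing normal neuroserpin in it.

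The early forebrain is set apart from the rest of the neural tube by factors such as Six3, after which Lhx2, Emx2, Dmrta2 and Dmrt3 give the dorsal telencephalon its cortical identity. Within the cortex several of these proteins form gradients across the sheet, high at one pole and low at the other, and the balance between them sets where cortical areas form. Emx2 and the Dmrt factors are high toward the medial and caudal cortex, whereas Nr2f1, also called COUP-TFI, is high toward the caudal and lateral cortex. Emx1, Emx2, Otx1, Lhx2 and Six3 bind DNA through a homeodomain, Dmrta2 and Dmrt3 through a zinc-binding DM domain, and Nr2f1 and Nr2f2 are orphan nuclear receptors.

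The libraries held between 15507487 and 24835835 counts. Serpini1, the mouse neuroserpin gene, had 5.72 ± 0.924 CPM in G392E-NS and 4.69 ± 0.483 CPM in GFP libraries (mean ± SD, n = 3 each). The groups overlapped and Serpini1 was not called (edgeR quasi-likelihood test, log2 fold change 0.29, SE 0.19, adjusted p = 0.419). It is not known whether these reads include the introduced gene. CPM are counts relative to library size, after TMM scaling for composition. The groups also differed in Xist, the RNA that silences an X chromosome in female cells, with 1494 ± 345 CPM in G392E-NS and 1.51 ± 0.0831 CPM in GFP libraries. Pax6, a factor of dorsal telencephalic progenitors, was present, with 51.7 ± 6.84 CPM in G392E-NS and 55.7 ± 4.30 CPM in GFP libraries. Pax6 did not pass the test (log2 fold change −0.11, SE 0.12, adjusted p = 0.643). Emx1, another marker of these progenitors that is described below, had 0 reads in G392E-NS and 6 reads in GFP libraries in all. The presence of Pax6 alone does not settle the regional identity of the cells. All 8 cortical progenitor markers were tested, and 1 was higher and 1 lower, with a summed level of 7019 to 9553 CPM in G392E-NS and 5997 to 7300 CPM in GFP libraries. All 8 astrocyte markers were tested and 3 were higher. All 7 oligodendrocyte lineage markers were tested and 1 was higher. None of the 4 intermediate progenitor markers or of the 6 tested neuron markers was called. Of all genes tested, 4.79% were higher and 1.36% lower. The summed level of the astrocyte markers ran between 4590 and 8163 CPM in G392E-NS libraries, against 1532 to 2606 CPM in GFP libraries. That of the oligodendrocyte lineage markers was 2760 to 5050 CPM in G392E-NS and 3220 to 3901 CPM in GFP libraries. Intermediate progenitor markers summed to 204 to 280 CPM in G392E-NS and 286 to 329 CPM in GFP libraries. Neuron markers summed to 3019 to 4179 CPM in G392E-NS and 3237 to 3726 CPM in GFP libraries. The part of the marker differences in the results below was not tested. In Xist every G392E-NS library lay above every GFP library. A difference between the cells that goes with Xist thus cannot be told apart from the construct in these 6 libraries. Choroid plexus markers summed to at most 0.416 CPM in G392E-NS and 0.171 CPM in GFP libraries, and mesenchymal and vascular markers to at most 2.12 and 0.684 CPM. In bulk RNA, fewer cells of a type and less RNA per cell cannot be told apart.

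Among the patterning factors, 5 had the higher levels in both groups and others were near the limit of detection. Dmrt3 in G392E-NS libraries lay between these sets. Levels of different genes were compared as RPKM, the same scaled CPM divided by the length of the exons in kilobases. In G392E-NS libraries Nr2f1 was highest at 24.8 ± 1.46 RPKM, followed by Emx2 (13.6 ± 1.11), Lhx2 (11.5 ± 1.20), Dmrta2 (6.04 ± 1.72) and Otx1 (4.02 ± 0.711 RPKM, mean ± SD, n = 3). In GFP libraries the same 5 genes came in the same order, with Nr2f1 at 15.6 ± 1.88, Emx2 at 10.9 ± 2.08, Lhx2 at 7.78 ± 0.266, Dmrta2 at 1.73 ± 0.433 and Otx1 at 1.71 ± 0.129 RPKM. Neighbours in this order whose library ranges overlapped were Emx2 and Lhx2 in G392E-NS libraries and Dmrta2 and Otx1 in GFP libraries. Dmrt3 lay well below them at 0.332 ± 0.0926 RPKM in G392E-NS and 0.0322 ± 0.0176 RPKM in GFP libraries. Nr2f2 had 0.0425 ± 0.0107 RPKM in G392E-NS and 0.0487 ± 0.00990 RPKM in GFP libraries. Six3 had 0.0196 ± 0.0182 RPKM in G392E-NS and 0.0250 ± 0.00832 RPKM in GFP libraries, and Emx1 had 0 RPKM in G392E-NS and 0.0471 ± 0.0289 RPKM in GFP libraries. Among Nr2f2, Six3 and Emx1 in G392E-NS libraries, and among these and Dmrt3 in GFP libraries, the ranges of neighbours in the order overlapped.

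**Figure D1:**
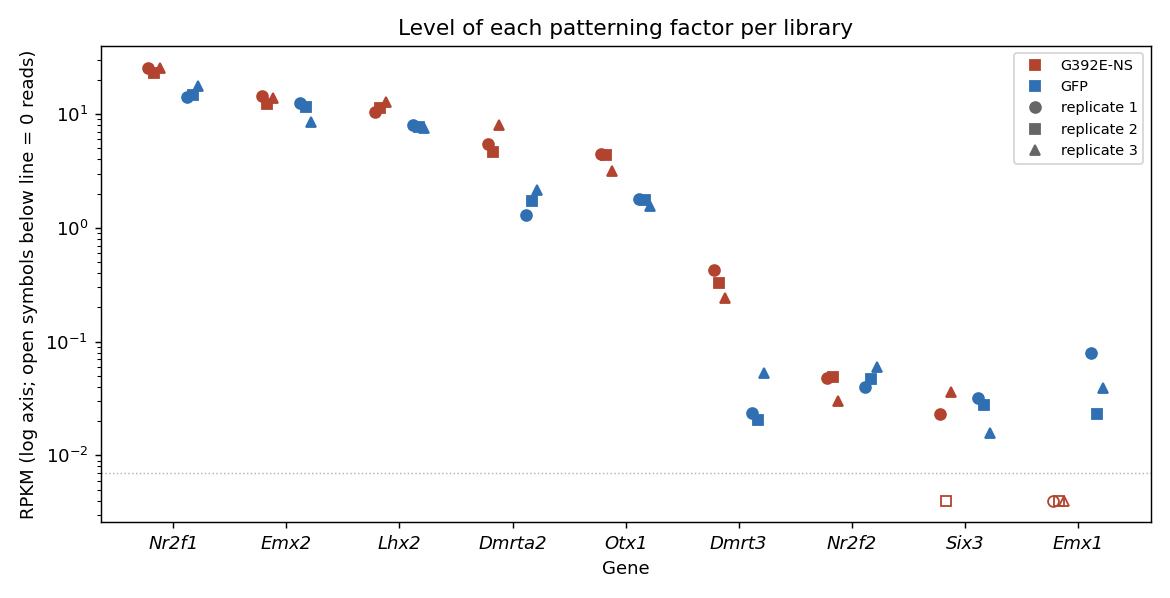
RPKM (log axis) of the 9 patterning factors in each library, with G392E-NS (red) left of GFP (blue) and marker shapes for replicates 1 to 3. Open symbols under the dotted line are libraries with 0 reads, and Nr2f1, at 24.8 ± 1.46 RPKM in G392E-NS and 15.6 ± 1.88 RPKM in GFP libraries, is highest in both groups.

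Of the 9 genes, 6 had enough reads to be tested. In G392E-NS libraries 5 of these 6 were higher at an adjusted p under 0.05 and none was lower (edgeR quasi-likelihood test over 13775 genes). Over all genes tested, 6.15% were called, 4.79% higher and 1.36% lower, and nothing is read from the members' count, since they were chosen with this comparison known. At an unadjusted p under 0.05 the counts were also 5 and 0, and DESeq2 gave 5 and 0 as well. In 5 of the 6 the groups did not overlap, against 28.6% of all genes tested. The median log2 fold change of the 6 was 0.96, against −0.00 over all genes tested. Nothing is read from these 2 values either, for the same reason. Among the 6, Dmrt3 passed the filter on low counts only through the G392E-NS group, so that its groups had to differ. Leaving out 1 library moved the count: 2 of the 6, Otx1 and Dmrta2, were called without GFP replicate 1 or without GFP replicate 2.

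**Figure D2:**
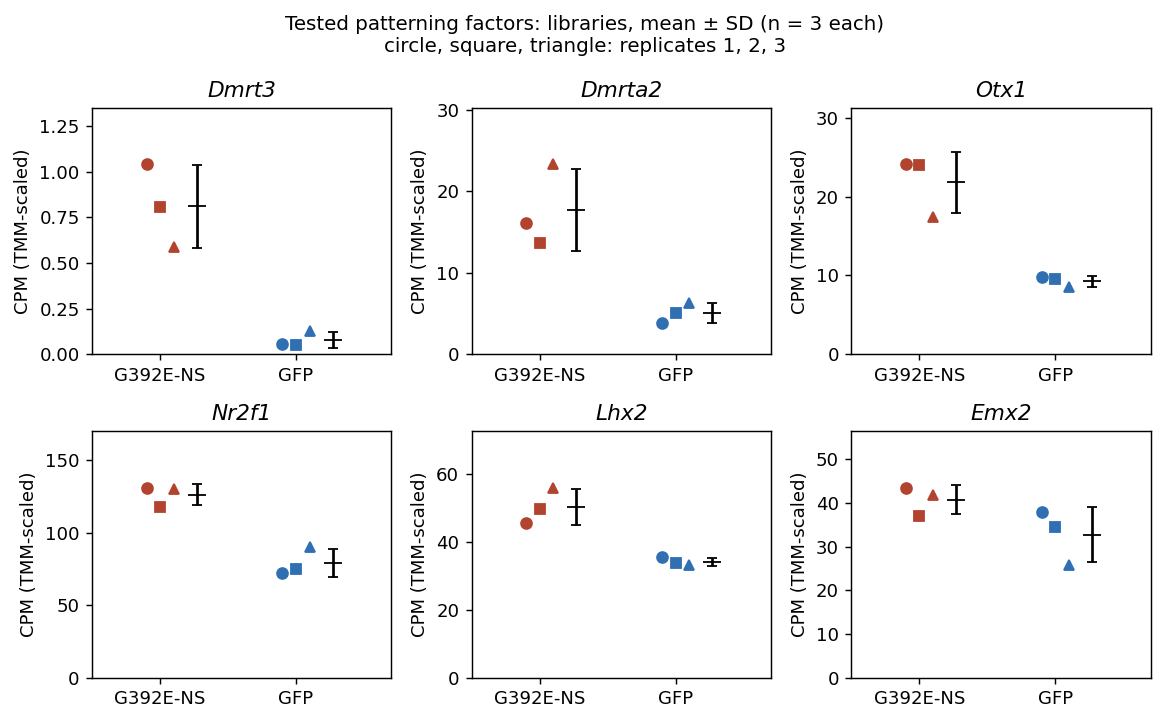
TMM-scaled CPM of the 6 tested patterning factors in each library (linear axes from 0), with G392E-NS left of GFP and the mean ± SD of 3 libraries in black. The groups are apart for Dmrt3, Dmrta2, Otx1, Nr2f1 and Lhx2 and overlap for Emx2, which reached 37.0 CPM in its lowest G392E-NS library and 38.0 CPM in its highest GFP library.

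The DM domain factors Dmrta2 and Dmrt3, which in the mouse work together to keep dorsal telencephalic progenitors from taking a ventral fate, showed the largest increases among the members. Dmrta2, also called Dmrt5 (ENSMUSG00000047143, GRCm38 chromosome 4, 109978053 to 109983687, plus strand), had 16.1, 13.6 and 23.3 CPM in G392E-NS libraries 1 to 3, against 3.80, 5.02 and 6.33 CPM in GFP libraries 1 to 3. The lowest G392E-NS library was above the highest GFP library. Dmrta2 rose 3.46-fold (log2 fold change 1.79, SE 0.26, adjusted p = 0.00738). Its spread between libraries was wide in both groups, with a coefficient of variation of 28.4% in G392E-NS and 25.0% in GFP libraries, beyond the 5.31% and 9.77% that counting error alone gives at these depths.

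Dmrt3 (ENSMUSG00000042372, chromosome 19, 25610301 to 25623921, plus strand) had 25, 19 and 9 reads in G392E-NS libraries 1 to 3, against 1, 1 and 3 reads in GFP libraries 1 to 3. These reads came to 1.04, 0.806 and 0.587 CPM in G392E-NS libraries, against 0.0576, 0.0502 and 0.128 CPM in GFP libraries. Every G392E-NS library lay above every GFP library. Dmrt3 rose 9.45-fold by the fitted model (log2 3.24, SE 0.48, adjusted p = 0.00841). The depth-scaled ratio of its summed reads, 53 against 5, was 10.2 with a 95% exact interval of 4.11 to 32.7, which covers counting error only. It passed the filter on low counts, near 0.471 CPM in 3 libraries, only through the G392E-NS group, so that a tested Dmrt3 had to differ. Dmrt3 was no longer called when GFP replicate 1 (adjusted p = 0.0539) or GFP replicate 2 (adjusted p = 0.0513) was left out.

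To show the sequence at the starts of these genes, windows of 300 bases were taken from RefSeq (GRCm38.p6). Each spans 250 bases before and 50 after an annotated start. RefSeq held at least 1 window for 8 of the 9 genes. Where it held 2, for Lhx2 and Nr2f1, the nearer to the annotated gene start was used. Capitals mark the CCAAT box (CCAAT) and the homeodomain core (TAAT), each on either strand. The windows of Dmrta2 (chr4:109977775-109978074, plus strand) and Dmrt3 (chr19:25610287-25610586, plus strand) are shown as those of the members with the largest increases.
Dmrta2: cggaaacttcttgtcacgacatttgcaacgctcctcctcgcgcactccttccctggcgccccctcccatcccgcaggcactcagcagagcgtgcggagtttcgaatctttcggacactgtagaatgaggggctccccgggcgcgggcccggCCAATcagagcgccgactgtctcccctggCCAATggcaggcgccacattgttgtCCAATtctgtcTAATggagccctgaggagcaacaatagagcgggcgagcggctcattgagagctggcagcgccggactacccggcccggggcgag
Dmrt3: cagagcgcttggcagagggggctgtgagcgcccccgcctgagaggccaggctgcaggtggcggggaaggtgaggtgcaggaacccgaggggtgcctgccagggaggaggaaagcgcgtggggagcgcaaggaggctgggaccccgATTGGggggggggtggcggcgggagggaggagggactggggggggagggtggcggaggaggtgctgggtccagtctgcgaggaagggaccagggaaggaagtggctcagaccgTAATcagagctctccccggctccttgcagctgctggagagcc
The Dmrta2 window held 3 CCAAT boxes and 1 TAAT, and the Dmrt3 window 1 of each. A CCAAT box was present in 37.4% of the 32841 windows in the RefSeq table and TAAT in 58.0%. Among the 8 members' windows, 5 held a CCAAT box and 5 held TAAT. The other motifs searched on both strands were the TATA box (TATAAA, in 0 of 8 and 13.6% of all windows), the GC box (GGGCGG, 4 of 8 and 35.7%), the E-box (CANNTG, 4 of 8 and 72.3%) and the nuclear receptor half-site (AGGTCA, 0 of 8 and 16.3%). TAATCC, bound by Otx proteins, and TAATTA, which each contain TAAT, were each found in 1 of 8 members' windows, against 7.06% and 5.29% of all windows. These matches are a description of the letters and not of binding.

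Otx1, a homeodomain factor related to orthodenticle of the fly and needed for the growth of the mouse cortex, rose in G392E-NS libraries. Otx1 (ENSMUSG00000005917, chromosome 11, 21994764 to 22002897, minus strand) had 24.1, 24.0 and 17.3 CPM in G392E-NS libraries 1 to 3, against 9.79, 9.54 and 8.47 CPM in GFP libraries 1 to 3. The groups did not overlap, and the GFP libraries lay close together. Otx1 rose 2.36-fold (log2 fold change 1.24, SE 0.16, adjusted p = 0.00503). Its relative Otx2, which marks the midbrain and the choroid plexus and is needed to form the forebrain early on, had 0 reads in all 6 libraries.

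Lhx2, a LIM homeodomain factor that acts as a selector of cortical identity, was also higher, by a smaller fold. Lhx2 (ENSMUSG00000000247, chromosome 2, 38339281 to 38369733, plus strand) had 45.5, 49.6 and 56.0 CPM in G392E-NS libraries 1 to 3, against 35.5, 33.9 and 33.2 CPM in GFP libraries 1 to 3. Again the groups did not overlap. Lhx2 rose 1.47-fold (log2 fold change 0.56, SE 0.10, adjusted p = 0.0218). The call was lost without GFP replicate 1, 2 or 3, with adjusted p of 0.0916, 0.108 and 0.0685. The antisense genes Gm13584 and Gm27197 inside Lhx2 held at most 4 reads a library.

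Emx2 and Emx1, homeodomain factors related to empty spiracles of the fly, differed from each other in level far more than between the groups. Emx2 (ENSMUSG00000043969, chromosome 19, 59458372 to 59465357, plus strand), which favours caudal and medial cortical areas, had 43.4, 37.0 and 41.8 CPM in G392E-NS libraries 1 to 3, against 38.0, 34.4 and 25.8 CPM in GFP libraries 1 to 3. The groups overlapped, and GFP replicate 3 was lowest. Emx2 was not called (log2 fold change 0.32, SE 0.15, adjusted p = 0.261). Emx2os, an antisense RNA whose exons overlap those of Emx2, had 7.81 ± 2.25 CPM in G392E-NS and 7.35 ± 2.39 CPM in GFP libraries (log2 fold change 0.09, SE 0.30, adjusted p = 0.899), a value that was −0.11 without G392E-NS replicate 3 and −0.16 without GFP replicate 3. The use of strand in counting is not given in the sources used here, so reads of Emx2 and Emx2os in their shared stretch cannot be told apart.

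Emx1 (ENSMUSG00000033726, chromosome 6, 85187438 to 85204462, plus strand), a marker of dorsal telencephalic progenitors and their excitatory neurons, had 0 reads in each G392E-NS library, against 3, 1 and 2 reads in GFP libraries 1 to 3. Its reads, 0 in G392E-NS against 6 in GFP libraries in all, were too few to be tested, and the 95% exact interval of their depth-scaled ratio ran from 0 to 0.818. A count of 0 allows up to 0.0476 CPM in the G392E-NS group (3 counts over the group). With no low-count filter its adjusted p was 0.180. Per kilobase of exon, Emx2 made up all of the Emx1 and Emx2 reads in G392E-NS libraries and 99.6 ± 0.212% in GFP libraries (SD, n = 3), where its lowest library had 99.4% (95% Wilson interval 98.2 to 99.8%).

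The nuclear receptor genes Nr2f1 and Nr2f2, whose proteins are close relatives, differed widely in level, with Nr2f1 the highest of the 9 factors in both groups and Nr2f2 among those near the limit of detection. Nr2f1 (ENSMUSG00000069171, chromosome 13, 78188973 to 78199757, minus strand), which in the mouse limits the size of frontal areas, had 131, 118 and 130 CPM in G392E-NS libraries 1 to 3, against 72.6, 74.9 and 90.2 CPM in GFP libraries 1 to 3. The groups were apart, with GFP replicate 3 the closest of its group to the G392E-NS libraries. Nr2f1 rose 1.60-fold (log2 fold change 0.67, SE 0.11, adjusted p = 0.0130). Nr2f1 was no longer called when GFP replicate 1 (adjusted p = 0.0758) or GFP replicate 2 (adjusted p = 0.0699) was left out. Its antisense neighbour A830082K12Rik, whose exons overlap those of Nr2f1, had 46.4 ± 4.82 CPM in G392E-NS and 34.5 ± 3.04 CPM in GFP libraries (log2 fold change 0.43, SE 0.12, adjusted p = 0.0710), so part of either value may be reads of the other gene.

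Nr2f2, also called COUP-TFII (ENSMUSG00000030551, chromosome 7, 70351944 to 70366735, minus strand), is known in the forebrain for the caudal ganglionic eminence and its interneurons. It had 10, 10 and 4 reads in G392E-NS libraries 1 to 3, against 6, 8 and 12 reads in GFP libraries 1 to 3, and was too low to be tested. The groups overlapped, and the depth-scaled ratio of the summed reads was 0.889 (95% exact interval 0.489 to 1.61). Of 5 interneuron markers, 2 were tested and 1 was lower, beside 1.36% lower of all genes tested. This was Gad1, which makes the transmitter GABA, with 67.1 ± 6.76 CPM in G392E-NS and 106 ± 2.75 CPM in GFP libraries (log2 fold change −0.65, SE 0.10, adjusted p = 0.00854). Gad1 made up nearly all of the summed level of the 5 markers, 63.8 to 76.2 CPM in G392E-NS and 105 to 109 CPM in GFP libraries. The groups overlapped for Gad2, Slc32a1, Dlx1 and Dlx2, each averaging at most 0.568 CPM in G392E-NS and 0.887 CPM in GFP libraries, and the part of these values in the Nr2f2 result was not tested. Per kilobase of exon, Nr2f2 made up 0.187, 0.212 and 0.118% of the Nr2f1 and Nr2f2 reads in G392E-NS libraries 1 to 3, against 0.280, 0.315 and 0.335% in GFP libraries 1 to 3. The shares did not overlap between the groups, while the Wilson intervals of single libraries did. Nr2f1, which makes up nearly all of each total, was higher in G392E-NS libraries, so the lower shares are no separate result for Nr2f2. Reads from stretches that the related genes share could be assigned to either.

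**Figure D3:**
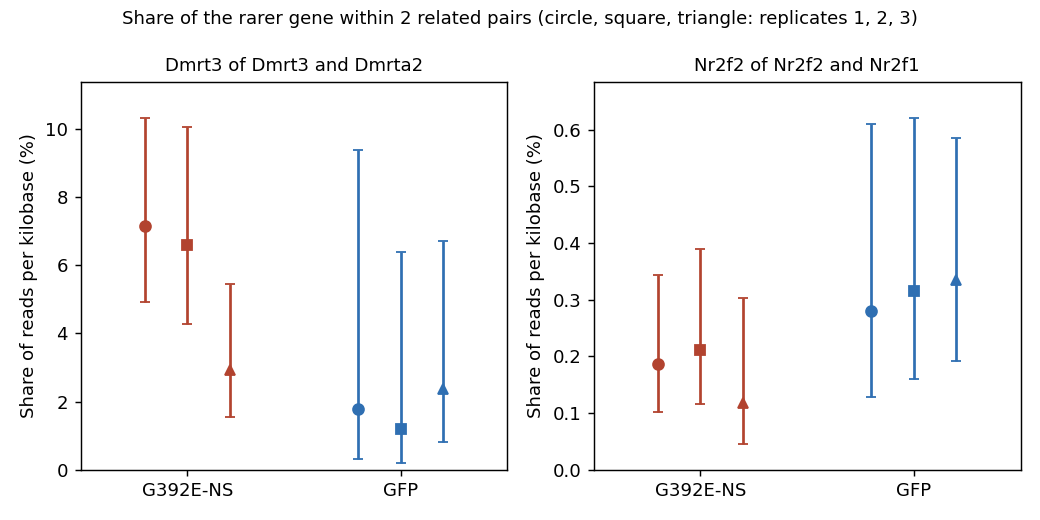
Share of reads per kilobase of exon from Dmrt3 within Dmrt3 and Dmrta2 (left) and from Nr2f2 within Nr2f2 and Nr2f1 (right), in percent, by library with 95% Wilson intervals, G392E-NS left of GFP. Nr2f2 makes up at most 0.335% of its pair in any library, and the Dmrt3 share of G392E-NS replicate 3 lies close to those of the GFP libraries.

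The windows at the starts of the nuclear receptor genes are shown because one of these relatives was the most abundant member and the other was barely detected. That of Nr2f1 is the nearer to the annotated gene start of 2 in the RefSeq table (chr13:78198824-78199123, minus strand), and that of Nr2f2 is the single entry (chr7:70366697-70366996, minus strand). Capitals mark CCAAT and TAAT on either strand as before.
Nr2f1: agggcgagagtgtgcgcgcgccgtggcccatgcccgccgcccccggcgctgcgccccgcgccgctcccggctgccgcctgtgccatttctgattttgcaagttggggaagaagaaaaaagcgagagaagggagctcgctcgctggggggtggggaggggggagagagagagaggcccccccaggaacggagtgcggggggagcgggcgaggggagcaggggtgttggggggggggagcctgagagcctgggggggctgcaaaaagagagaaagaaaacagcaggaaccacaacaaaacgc
Nr2f2: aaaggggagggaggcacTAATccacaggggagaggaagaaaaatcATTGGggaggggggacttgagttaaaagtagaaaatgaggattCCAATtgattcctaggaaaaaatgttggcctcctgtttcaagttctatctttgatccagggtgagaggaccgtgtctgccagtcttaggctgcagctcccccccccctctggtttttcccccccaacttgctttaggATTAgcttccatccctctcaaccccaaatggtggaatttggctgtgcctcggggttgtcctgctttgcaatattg
The Nr2f1 window had 68.0% G and C and a CpG ratio, the count of CG over that expected from its C and G, of 0.717. The Nr2f2 window had 49.7% G and C and a CpG ratio of 0.109, below all but 14.6% of the windows in the table, whose medians were 52.7% and 0.384. It held 2 CCAAT boxes and 2 TAAT cores, both of which read TAATCC, whereas the Nr2f1 window held neither and 1 GC box. Other starts of Nr2f2 were not used here. Among the 8 members' windows, those of Nr2f2 and Six3 were the 2 below the median G and C content.

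Within the Dmrt pair the rarer gene took a larger share in G392E-NS libraries. Per kilobase of exon, Dmrt3 made up 7.17, 6.61 and 2.92% of the Dmrt3 and Dmrta2 reads in G392E-NS libraries 1 to 3, against 1.78, 1.18 and 2.37% in GFP libraries 1 to 3. These shares use the same reads as the fold changes above and are no separate result. Those of GFP libraries 1 to 3 rested on 1, 1 and 3 Dmrt3 reads, with wide Wilson intervals of 0.315 to 9.39, 0.209 to 6.38 and 0.809 to 6.71%. The groups did not overlap, but G392E-NS replicate 3, with 9 Dmrt3 reads, had a Wilson interval of 1.55 to 5.46% that held the values of GFP replicates 1 and 3. In that replicate Dmrta2 and Lhx2 were highest of the 6 libraries, and Otx1 and Dmrt3 lowest of the G392E-NS group. The 5 members called higher thus did not keep a common order among the G392E-NS libraries.

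Six3 (ENSMUSG00000038805, chromosome 17, 85613608 to 85629302, plus strand), a homeodomain factor of the anterior neural plate and the eye field that restrains Wnt signalling, was near absent. It had 3, 0 and 3 reads in G392E-NS libraries 1 to 3, against 3, 3 and 2 reads in GFP libraries 1 to 3. The groups overlapped, and the depth-scaled ratio of 0.723 had a 95% exact interval of 0.207 to 2.38, so that no difference was detectable at this depth. Its antisense partner Six3os1 had 1 read in G392E-NS and 4 reads in GFP libraries in all.

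Among other factors of the dorsal telencephalon, 39 were listed and 29 tested, of which 2 were higher and 3 lower. Over all genes tested, 4.79% were higher and 1.36% lower. The 29 had a median log2 fold change of −0.05, against −0.00 over all genes tested. Bcl11a, a zinc finger factor of cortical projection neurons, rose (log2 fold change 3.82, SE 0.36, adjusted p = 0.00120), with 74, 74 and 35 reads in G392E-NS libraries 1 to 3, against 2, 3 and 7 in GFP libraries 1 to 3. Like Dmrt3, it passed the filter only through the G392E-NS group.

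The lower factors on that list were Nfia, which promotes gliogenesis, Zbtb20, which marks the developing hippocampus, and Sall1, a zinc finger factor of cortical progenitors. Their log2 fold changes were −0.52 for Nfia (SE 0.09, adjusted p = 0.0153), −0.73 for Zbtb20 (SE 0.14, adjusted p = 0.0221) and −0.58 for Sall1 (SE 0.12, adjusted p = 0.0319). With either GFP replicate 1 or GFP replicate 2 left out, none of these 3 was called, with adjusted p of 0.0892 and 0.0870 for Nfia, 0.103 and 0.0961 for Zbtb20, and 0.123 and 0.129 for Sall1. Zbtb20 also lost its call without G392E-NS replicate 2 (adjusted p = 0.0629), and Sall1 without G392E-NS replicate 1, 2 or 3 (0.0522, 0.0816 and 0.0582).

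Of 39 listed genes of the signalling centres that set the cortical gradients, 23 were tested, 1 was higher and none lower (edgeR), near the 6.15% called over all genes tested. Their median log2 fold change was −0.03. At an unadjusted p under 0.05 there were 3 higher and 3 lower, and DESeq2 called 2 higher and 1 lower. The higher gene was Fgfr3, a fibroblast growth factor receptor of ventricular progenitors and astrocytes, which had 385 ± 46.8 CPM in G392E-NS and 130 ± 23.5 CPM in GFP libraries (log2 fold change 1.56, SE 0.15, adjusted p = 0.00139). Fgf8, the rostral ligand that opposes Emx2 and Nr2f1, is named here after its values were seen. It had 2, 2 and 5 reads in G392E-NS libraries 1 to 3, against 4 in each GFP library, and was too low to be tested.

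Of 38 factors of other regions in the table, 14 were tested, 2 were higher and 2 lower, beside 4.79% higher and 1.36% lower over all genes tested. Their median log2 fold change was −0.05. En2 and Gbx2, of the midbrain and anterior hindbrain, were lower, at −3.37 on the log2 scale (SE 0.22, adjusted p = 0.000229) for En2 and −1.36 (SE 0.22, adjusted p = 0.0139) for Gbx2. The ventral factors Nkx2-2 and Gsx1 were higher, with log2 fold changes of 3.96 (SE 0.82, adjusted p = 0.0303) for Nkx2-2 and 1.05 (SE 0.22, adjusted p = 0.0346) for Gsx1. Nkx2-2 had 70, 27 and 12 reads in G392E-NS libraries 1 to 3, against 4, 2 and 0 reads in GFP libraries 1 to 3, and passed the filter only through the G392E-NS group, so that a tested Nkx2-2 had to differ. Its log2 fold change was 3.19 without G392E-NS replicate 1, 4.98 without GFP replicate 1 and 3.31 without GFP replicate 3. Gsx1 and Nkx2-2 each lost their call when any single GFP library was left out (adjusted p of 0.0732 to 0.140), and Gbx2 lost it without GFP replicate 1 (0.0673). Gsx2, which specifies the lateral ganglionic eminence and which Dmrta2 and Dmrt3 are known to repress in the mouse, is named after its values were seen. It had 18, 6 and 4 reads in G392E-NS libraries 1 to 3, against 0 in each GFP library. It was not tested, and the 95% exact interval of the depth-scaled ratio of its reads, 28 against 0, began at 6.84 and had no upper end.

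**Figure D4:**
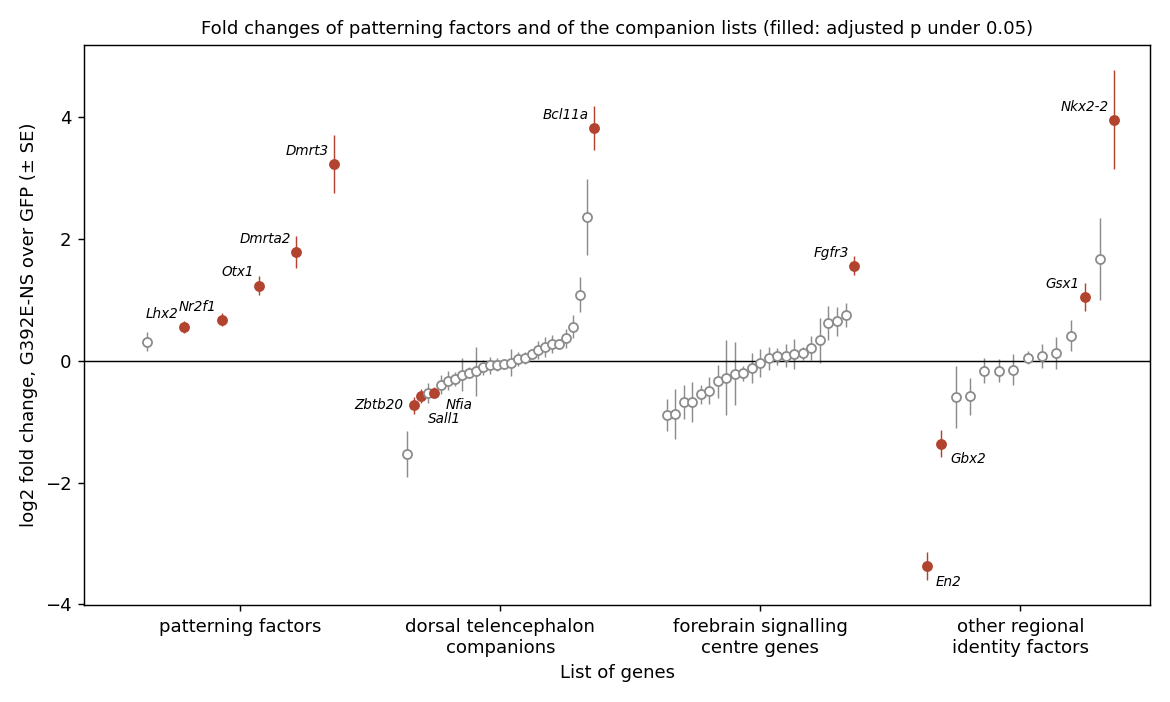
Log2 fold change of G392E-NS over GFP with its standard error for the tested genes of 4 lists that are reported here, ordered within each list, filled and named where the adjusted p was under 0.05. All 6 tested patterning factors lie above 0, with a median of 0.96, but nothing is read from this, since they were chosen with this comparison known. The dorsal telencephalon companions spread to both sides with a median of −0.05 over the 29 tested.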

How the data were processed

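RNA sequencing counts of 6 libraries, 3 of G392E-NS and 3 of GFP cells, were analysed. The deposited table holds raw counts, whole numbers per Ensembl gene, per the labels. GRCm38 is the build in the submitters' processing notes, which also list, with no roles, DESeq2 1.4.5 and R 3.2.2 beside HTSeq 0.6.1 and TopHat2 2.0.12. Neither annotation release nor strand setting is stated there. Symbols, positions and exon lengths came from GENCODE M21 (GRCm38), which held 37607 of the 39179 genes.

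Groups and replicate numbers came from the labels. Chi-square per degree of freedom between replicates was 8.02 to 56.4, far above sampling noise, so none was a duplicate. Genes were filtered with filterByExpr, which left 13775, scaled with TMM and tested with edgeR 4.0.16 in R 4.3.3 (quasi-likelihood F test, no covariate, Benjamini-Hochberg over all genes tested, threshold 0.05). Each standard error is the size of the log2 fold change over the square root of F. Alternatives were other scalings, DESeq2 1.42.0, voom of limma 3.58.1, other filters, the replicate block and leaving out each library. The tests were tried on simulated counts. Intervals and floors cover counting error only.

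Members and lists were chosen with earlier results of these data known. The text names the members, up to 6 called genes of each list, genes within 10 kb of a member, Pax6 and Serpini1, and says where it names others; Xist and the interneuron markers were among these. A planned ranking of genes by correlation over libraries is not given, since the libraries form 2 separate groups, and 1 further gene, which stays in the counts of its list, is not reported here.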

Additional observations from a re-analysis of the deposited data

How the results depend on the processing

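The 6 tested patterning factors kept their direction in each of the settings in which they were tested. Dmrta2 and Otx1 also kept their calls, with log2 fold changes of 1.55 to 1.99 and 1.14 to 1.38. The members called higher numbered 2 to 5 with a library left out and 3 with the replicate number as a block. Same-numbered libraries did not deviate together (correlations of 0.0440, −0.439 and −0.275), so the numbers were not taken as pairs. Under that block 267 genes were called, 217 of them higher, and Lhx2 (adjusted p = 0.0914) and Dmrt3 (adjusted p = 0.0526) lost their calls. Over all genes, 847 were called, 660 of them higher. DESeq2 called 1450, 1084 of them higher, and omitting the low-count filter gave 1579, 1205 of them higher. With a library left out, 242 to 1373 were called and 196 to 981 were higher. Dorsal telencephalon genes called higher numbered 1 with total-count scaling, limma-voom or the replicate block and 4 by DESeq2 or with no filter. With a library left out they numbered 1 to 3, and the lower ones 0 to 4, with 0 under the block. Signalling centre genes called higher and lower numbered 2 and 1 by DESeq2, 3 and 2 with no filter, and 1 and 0 to 1 with a library left out. Other regional factors called higher numbered 1 with at least 1 CPM in 3 libraries, 1 higher and 1 lower under the block, and 0 to 2 and 1 to 2 with a library left out. The antisense gene Emx2os had a log2 fold change of −0.11 without G392E-NS replicate 3 and −0.16 without GFP replicate 3, in a leave-one-out range that reached 0.30, and the cause was not tested. With at least 1 CPM in 3 libraries Dmrt3 was not tested. Nr2f2 made up 0.291% of G392E-NS and 0.524% of GFP reads of its pair when not divided by length, since its exons are longer. Emx1, Six3 and Nr2f2 are limited by depth, at 12 reads or fewer a library.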

Other observations

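Of the genes within 10 kb of a patterning factor, Sfxn5, which encodes a mitochondrial carrier and ends 8586 bases past Emx1, was the only one called. It had 682 ± 223 CPM in G392E-NS and 286 ± 56.7 CPM in GFP libraries (mean ± SD, n = 3 each; log2 fold change 1.25, SE 0.24, adjusted p = 0.0248), while Emx1 itself had 0 reads in G392E-NS libraries. Sfxn5 lost this call without GFP replicate 1 or 2 (adjusted p = 0.104 and 0.0947) and without G392E-NS replicate 3 (0.0557). Ehbp1, which lies 2930 bases from Otx1 on the same strand, had 70.2 ± 4.85 CPM in G392E-NS and 82.7 ± 5.43 CPM in GFP libraries (log2 fold change −0.24, SE 0.09, adjusted p = 0.192), beside the rise of Otx1. The divergent antisense gene Dmrta2os, 239 bases from Dmrta2, had 15, 8 and 7 reads in G392E-NS libraries 1 to 3, against 3, 6 and 5 reads in GFP libraries 1 to 3, with groups that did not overlap in CPM and too few reads to be tested. Dmrt1, the neighbour of Dmrt3 that acts in the gonad, had 3, 3 and 2 reads in G392E-NS libraries, against 0, 2 and 0 in GFP libraries.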
